A study of Mus musculus with 8 samples.

Results

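The response of mpkCCDc14 cells to aldosterone at 6 h was set against the response at 1 h. On each array the log2 ratio of aldosterone over vehicle was measured, and for every gene the 4 ratios at 6 h were compared with the 4 at 1 h, unpaired. All 8 arrays entered, and every feature with a value on all 8 was kept, which gave 15078 features, of which 12535 were named genes and 2543 were probes with no name here, out of 15339 features with values at either time. The cells are a mouse line from the kidney cortical collecting duct, grown on collagen-coated filters and moved to steroid-free serum before treatment. They received aldosterone at 1 µM or its vehicle, ethanol, for 1 h or for 6 h. The aldosterone cDNA carried Cy5 and the vehicle cDNA Cy3 on all arrays, with no exchange of the dyes. A constant dye difference of a gene is in its ratio at both times and drops out of the difference, which is called the log2 difference below (6 h minus 1 h). Each time had its own vehicle, so a change in the aldosterone cells and a change in the vehicle cells between the times cannot be told apart. All material came from a single line, in RNA of whole cultures, where fewer cells of a kind and less RNA per cell cannot be told apart, and a ratio gives no level, so collecting duct markers could not be checked for presence.

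Aldosterone enters the cell and binds the mineralocorticoid receptor, and at high concentration also the glucocorticoid receptor. These receptors act in the nucleus on steroid response elements, paired copies of the hexamer AGAACA that face each other, and raise transcription of early target genes. In the collecting duct the early targets include the kinase Sgk1, which keeps the epithelial sodium channel at the cell surface, and later effects include more sodium channel and sodium pump subunits. Several early targets, such as Tsc22d3 and Fkbp5, respond to either receptor.

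The arrays were centred near 0. The SD of the log2 ratios was between 0.306 and 0.487 on 7 arrays and 0.583 on replicate 4 at 1 h, which stands apart in spread, so differences of single genes are also given without it where it moves them by over 1.5 times, as are counts of list members where it moves them by that much and by more than 1 member. Leaving out an array cannot lower a count of members without overlap, so such counts are no check on that array. Across features, Pearson's r was 0.609 to 0.724 between arrays of 1 h, 0.462 to 0.586 between arrays of 6 h and 0.308 to 0.588 between arrays of different times. These correlations run over features, which are not independent replicates. The labels give no replicate number at 1 h or for some arrays of 6 h, and there the numbers used here follow the order of the samples. Nothing in the labels ties the arrays to separate cultures, and the p-values therefore reflect only how much these arrays vary, which may be technical. Values after ± are standard errors of the limma fit with 4 arrays at each time, and every adjusted p comes from that fit by the Benjamini-Hochberg method over all 15078 features.

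Few genes passed the test of the difference. At an adjusted p under 0.05 the count was 4 of 15078 features (0.0265%), with 3 higher at 6 h (0.0199%) and 1 lower (0.00663%). The ratios of Sult1d1, Fkbp5 and Ccr7 rose and that of Cxcl5 fell. The count rests on few arrays, since limma called 0 features without replicate 4 of 1 h and 0 without replicate 2 of 6 h, where 1930 and 1515 features had an unadjusted p under 0.05, and it called 9 after scaling the arrays and 12 after quantile normalization. The unadjusted p was under 0.05 for 2429 features (16.11%), of which 1349 were higher and 1080 lower at 6 h. A count that uses no error model gave a wider set, since in 759 features (5.03%) all 4 arrays of 6 h were above all 4 of 1 h and in 716 (4.75%) all 4 were below. The median log2 difference over all features was -0.02, with -0.38 at percentile 5 and 0.43 at percentile 95. At least 2-fold differences were found for 33 features higher and 39 lower at 6 h, of which 14 and 11 also showed no overlap of 6 h with 1 h.

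**Figure D1:**
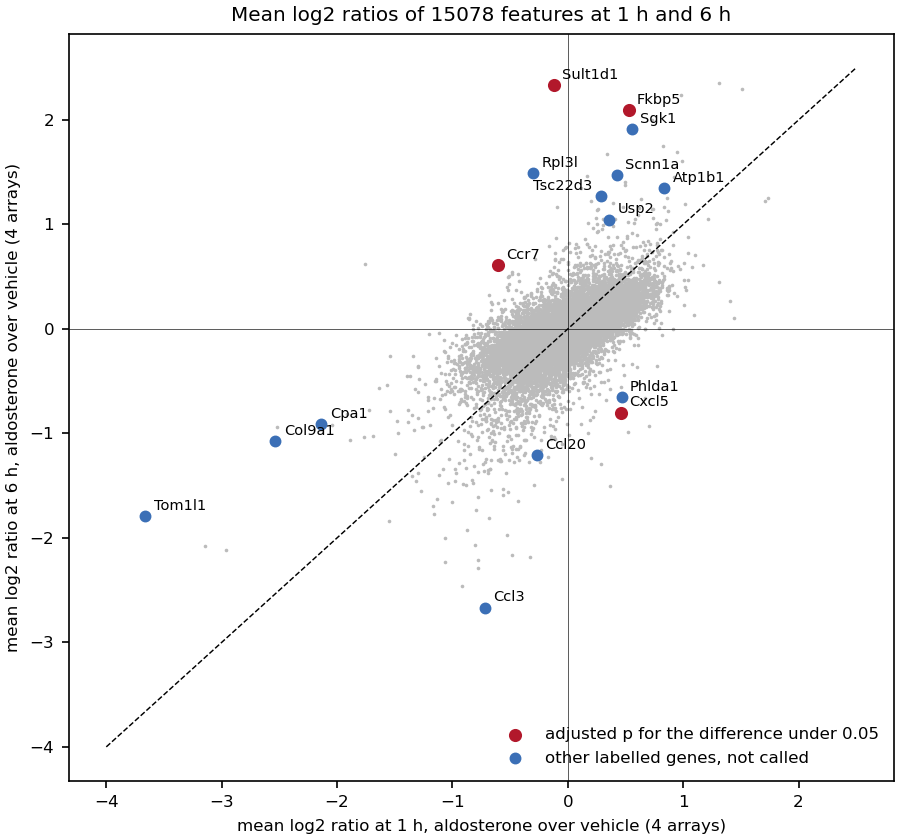
Mean log2 ratio of aldosterone over vehicle at 1 h (x axis) and at 6 h (y axis), each over 4 arrays, for 15078 features as grey points, with the line of equal ratios dashed. The 4 genes that passed the test are red, and Sult1d1, Fkbp5 and Ccr7 lie above the line while Cxcl5 lies below it.

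The ratio lay nearer 0 at 6 h than at 1 h for 9702 of the 15078 features (64.35%). Over all features the SD of the mean log2 ratio was 0.35 at 1 h and 0.30 at 6 h. Without replicate 4 of 1 h, 58.26% of features were nearer 0 at 6 h, and the SD at 1 h was 0.30. Of the 759 features without overlap that were higher at 6 h, 399 were below vehicle at both times, 303 went from below to above vehicle, and 55 were above at both. Genes that were above vehicle at 1 h and moved further above it, such as Fkbp5 and Scnn1a, are thus a minority of the higher set. Of the 716 that were lower at 6 h, 297 were above vehicle at both times, 299 went from above to below, and 118 were below at both. In the higher set 612 features, and in the lower set 466, were nearer 0 at 6 h, with all 8 arrays.

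The sequences before the start sites of the early steroid targets Sgk1, Tsc22d3, Fkbp5 and Sult1d1 are given here because the receptor's element can be looked for in them directly. They are the 250 bases before an annotated start in RefSeq on GRCm38.p6, written 5′ to 3′ on the strand of the gene, and capitals mark the hexamer AGAACA or its reverse complement TGTTCT. The Sgk1 window lies at chr10:21993640-21993889 on the plus strand, the Tsc22d3 window at chrX:140600523-140600772 on the minus strand, the Fkbp5 window at chr17:28486150-28486399 on the minus strand and the Sult1d1 window at chr5:87569007-87569256 on the minus strand.
Sgk1: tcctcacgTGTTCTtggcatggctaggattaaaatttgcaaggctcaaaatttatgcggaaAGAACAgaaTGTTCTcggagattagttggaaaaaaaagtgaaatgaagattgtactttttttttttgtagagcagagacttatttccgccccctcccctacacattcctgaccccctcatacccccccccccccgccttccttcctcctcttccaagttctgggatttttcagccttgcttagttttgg
Tsc22d3: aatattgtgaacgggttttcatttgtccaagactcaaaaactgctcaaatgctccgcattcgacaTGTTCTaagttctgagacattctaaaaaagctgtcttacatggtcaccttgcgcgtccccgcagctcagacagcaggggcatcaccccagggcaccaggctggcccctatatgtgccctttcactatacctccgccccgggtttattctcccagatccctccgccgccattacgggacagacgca
Fkbp5: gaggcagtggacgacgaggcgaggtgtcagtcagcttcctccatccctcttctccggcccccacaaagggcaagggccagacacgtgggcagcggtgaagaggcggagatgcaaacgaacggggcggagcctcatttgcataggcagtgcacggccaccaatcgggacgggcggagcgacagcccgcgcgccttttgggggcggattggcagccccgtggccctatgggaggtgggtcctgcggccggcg
Sult1d1: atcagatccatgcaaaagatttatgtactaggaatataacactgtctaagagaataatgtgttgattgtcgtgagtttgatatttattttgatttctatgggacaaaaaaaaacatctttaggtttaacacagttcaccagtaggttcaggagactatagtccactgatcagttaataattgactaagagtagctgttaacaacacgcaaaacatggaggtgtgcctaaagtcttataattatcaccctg
The Sgk1 window holds 3 copies, which begin 242, 189 and 180 bases before the start, and those at 189 and 180 face each other 3 bases apart, a complete pair without mismatch. It is 1 of 6 Sgk1 windows in the annotation, 3 of which hold the hexamer. The Tsc22d3 window holds 1 copy, 185 bases before the start, and is the only 1 of 3 windows of that gene with the hexamer. For Sgk1 and Tsc22d3 only windows that hold the hexamer were taken for printing. Of the 3 such Sgk1 windows only the one with the complete pair is shown. The others hold 1 copy each before the start, and their closest facing pairs have 3 and 5 mismatches, so the pair is not typical of Sgk1 windows. No copy was in the Fkbp5 or the Sult1d1 window, which says only that these letters are not within those bases. Of the genes shown, Fkbp5 and Sult1d1 passed the test of the difference and Sgk1 and Tsc22d3 did not. No window was available for Ccr7 or Cxcl5, which also passed.

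These matches were set against all promoters. The hexamer was searched on both strands from 250 bases before to 50 after each start, and 14.82% of 12677 windows from 9994 tested genes held it. The share was 17.72% of 649 windows of genes whose arrays were all higher at 6 h and 12.74% of 620 windows of genes whose arrays were all lower. A facing pair 3 bases apart with up to 2 mismatches in all was in 1.36% of all windows, 1.85% of the higher set and 1.29% of the lower set. An exact pair was found in 2 windows of 2 genes, Sgk1 among them. Of the 31 early targets measured, 24 had a window, and 4 of these had the hexamer in at least 1 window. By windows, 6 of their 37 held it, beside 14.82% of all windows, and 3 of those 6 were of Sgk1. These shares are a description without a test.

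Of 31 measured early corticosteroid targets, 2 rose, beside 0.0199% of all features, and 1 of them, Sult1d1, was put on the list with earlier results of these samples known. Sult1d1, a cytosolic sulfotransferase that acts on catecholamines, was near or below vehicle at 1 h, with log2 ratios of 0.30, -0.14, -0.23 and -0.42 on replicates 1 to 4. At 6 h its ratios were 2.83, 2.47, 2.05 and 1.99, all far above those of 1 h. Its log2 difference was 2.46 ± 0.21, or 5.49-fold (adjusted p = 0.00725), the highest of any feature that passed. Leaving out 1 array at a time kept the call in 6 of 8 fits and moved the value between 2.29 and 2.60. The call was lost without replicate 4 of 1 h or replicate 2 of 6 h, with adjusted p up to 0.0575.

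Fkbp5, an immunophilin that lowers the hormone affinity of steroid receptor complexes, was already above vehicle at 1 h. Its log2 ratios were 0.76, 0.69, 0.03 and 0.63 at 1 h and 2.13, 2.08, 2.07 and 2.11 at 6 h. The arrays of 6 h nearly coincided (SD 0.03), while replicate 3 was the low array of 1 h. The log2 difference was 1.57 ± 0.15, or 2.97-fold (adjusted p = 0.0122). It ranged from 1.40 to 1.65 when single arrays were left out, and the call was kept in 4 of these 8 fits, being lost without replicate 4 of 1 h or any of replicates 1, 2 and 3 of 6 h, with adjusted p up to 0.0765.

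The remaining early targets did not pass. Sgk1 had log2 ratios of 1.65 and 1.38 on replicates 1 and 2 of 1 h but -0.64 and -0.16 on replicates 3 and 4, and 2.65, 2.00, 1.53 and 1.46 at 6 h. The times overlap, since replicate 1 of 1 h was above replicates 3 and 4 of 6 h. Its log2 difference was 1.35 ± 0.50 (adjusted p = 0.256), and between 0.95 without replicate 3 of 1 h and 1.72 without replicate 1 of 1 h. Tsc22d3, the gene of the leucine zipper protein GILZ, split the arrays of 1 h the same way, with 1.01 and 0.88 against -0.60 and -0.15. At 6 h it stood at 1.15, 1.15, 1.59 and 1.19, above every array of 1 h, with a log2 difference of 0.99 ± 0.33 (adjusted p = 0.233). Without replicate 3 of 1 h that difference was 0.69, and without replicate 1 it was 1.23. For both genes the error of the difference thus came mainly from 1 h, where the SD was 1.13 for Sgk1 and 0.79 for Tsc22d3, against 0.55 and 0.21 at 6 h.

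Usp2, a deubiquitinase that acts on the sodium channel, had 0.46, 0.92, -0.01 and 0.06 at 1 h and 1.45, 0.87, 0.89 and 0.97 at 6 h. The times overlap for Usp2 through replicate 2 of 1 h, and its log2 difference was 0.69 ± 0.21 (adjusted p = 0.213). Among the transcription factors on the list, Zbtb16 had a log2 difference of 0.47 ± 0.18 (adjusted p = 0.270), Klf9 one of 0.32 ± 0.14 (adjusted p = 0.298), and Cebpd one of 0.32 ± 0.12 (adjusted p = 0.255). The Klf9 value is the average of 2 probes that differed. With each probe by itself their log2 differences were 0.02 and 0.62, so the average describes neither probe. Cebpb had a log2 difference of 0.28 ± 0.11 (adjusted p = 0.270). The clock gene Per1, a known early aldosterone target, was at 0.20 ± 0.13 (adjusted p = 0.438), and Edn1, the endothelin-1 gene, at 0.03 ± 0.21 (adjusted p = 0.961, and a difference of 0.07 without replicate 4 of 1 h), so for these 2 genes no difference was detectable. The lowest value was that of the metallothionein Mt2, at -0.47 ± 0.24 (adjusted p = 0.345), where replicate 4 of 1 h, at 1.54, was above the other 7 arrays, and without that array the difference was -0.20.

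For the early targets as a list, the log2 difference was above 0 in 25 of 31 and below 0 in 6, beside 46.52% and 53.17% of all features. The median was 0.17 against -0.02 over all features. In 5 of the 31 (16.1%) all arrays of 6 h were above all of 1 h, namely Tsc22d3, Fkbp5, Scnn1a, Sult1d1 and Atp1b1, and in 0 all were below, beside 5.03% and 4.75% of all features. Without replicate 4 of 1 h these counts were 5 and 1 (16.13% and 3.23%), beside 6.34% and 6.21% of all features. The list's median ratio on single arrays was 0.28, 0.27, -0.07 and -0.15 at 1 h and 0.34, 0.36, 0.15 and 0.31 at 6 h. Replicates 3 and 4 of 1 h were the low arrays, as they were for Sgk1 and Tsc22d3. The whole list was chosen with earlier results of these data known, and Sult1d1 and Atp1b1 are on it because of them. These counts, which include both genes, are therefore a description and not independent evidence.

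**Figure D2:**
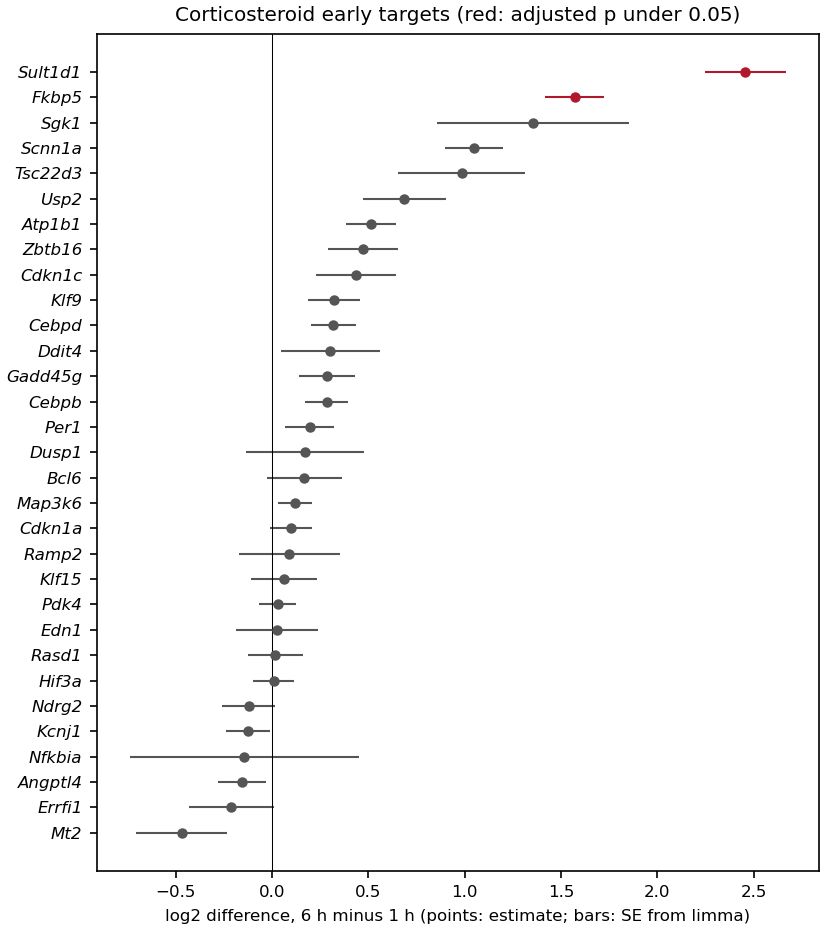
Log2 difference, 6 h minus 1 h (x axis), of the 31 measured corticosteroid early targets, with points for the estimate and bars for the standard error from limma. Sult1d1 and Fkbp5, in red, are the 2 that passed the test, and 25 of 31 estimates lie above 0, beside 46.52% of all features.

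In the pathway of the epithelial sodium channel and the sodium pump no gene passed. Scnn1a, which encodes the pore-forming alpha subunit of that channel, came nearest, with log2 ratios of 0.59, 0.43, 0.12 and 0.55 at 1 h and 1.78, 1.24, 1.56 and 1.31 at 6 h. All arrays of 6 h were above all of 1 h, and the log2 difference was 1.05 ± 0.15 (adjusted p = 0.0799). With arrays weighted by their fit to the model, Scnn1a passed (1.13, adjusted p = 0.0339), and with single arrays left out the adjusted p lay between 0.0992 and 0.269.

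The other channel subunits gave no such separation. Scnn1b, the beta subunit, had a log2 difference of -0.17 ± 0.11 (adjusted p = 0.444) and Scnn1g, the gamma subunit, one of 0.24 ± 0.17 (adjusted p = 0.480), or 0.36 without replicate 4 of 1 h. The difference between subunits was not tested. Atp1b1, which encodes a beta subunit of the sodium pump, had 0.90, 0.73, 0.58 and 1.13 at 1 h and 1.35, 1.30, 1.22 and 1.52 at 6 h. Its arrays did not overlap, since the highest of 1 h was below the lowest of 6 h, and the log2 difference was 0.51 ± 0.13 (adjusted p = 0.202).

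Some further genes that act on the channel had differences below 0. In the sodium transport list 17 of 31 measured members were below 0 and 14 above, beside 53.17% of all features below 0. Nedd4l, the ubiquitin ligase that removes the sodium channel from the surface, had a log2 difference of -0.24 ± 0.18 (adjusted p = 0.514), and -0.07 without replicate 4 of 1 h. Ywhae, a 14-3-3 protein that binds phosphorylated Nedd4l, was at -0.23 ± 0.11 (adjusted p = 0.332) with all arrays lower at 6 h, and -0.14 without that array. Cftr, the chloride channel, also had all arrays lower, from 0.05, 0.02, 0.13 and 0.12 to -0.28, -0.40, -0.20 and -0.15, with a log2 difference of -0.34 ± 0.09 (adjusted p = 0.202). Of 31 measured members of the sodium transport list, 3 (Scnn1a, Atp1b1 and Tsc22d3) had all arrays higher at 6 h and 2 (Ywhae and Cftr) all lower, which is 9.7% and 6.5% beside 5.03% and 4.75% of all features. The list's median log2 difference was -0.03, close to that of all features.

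**Figure D3:**
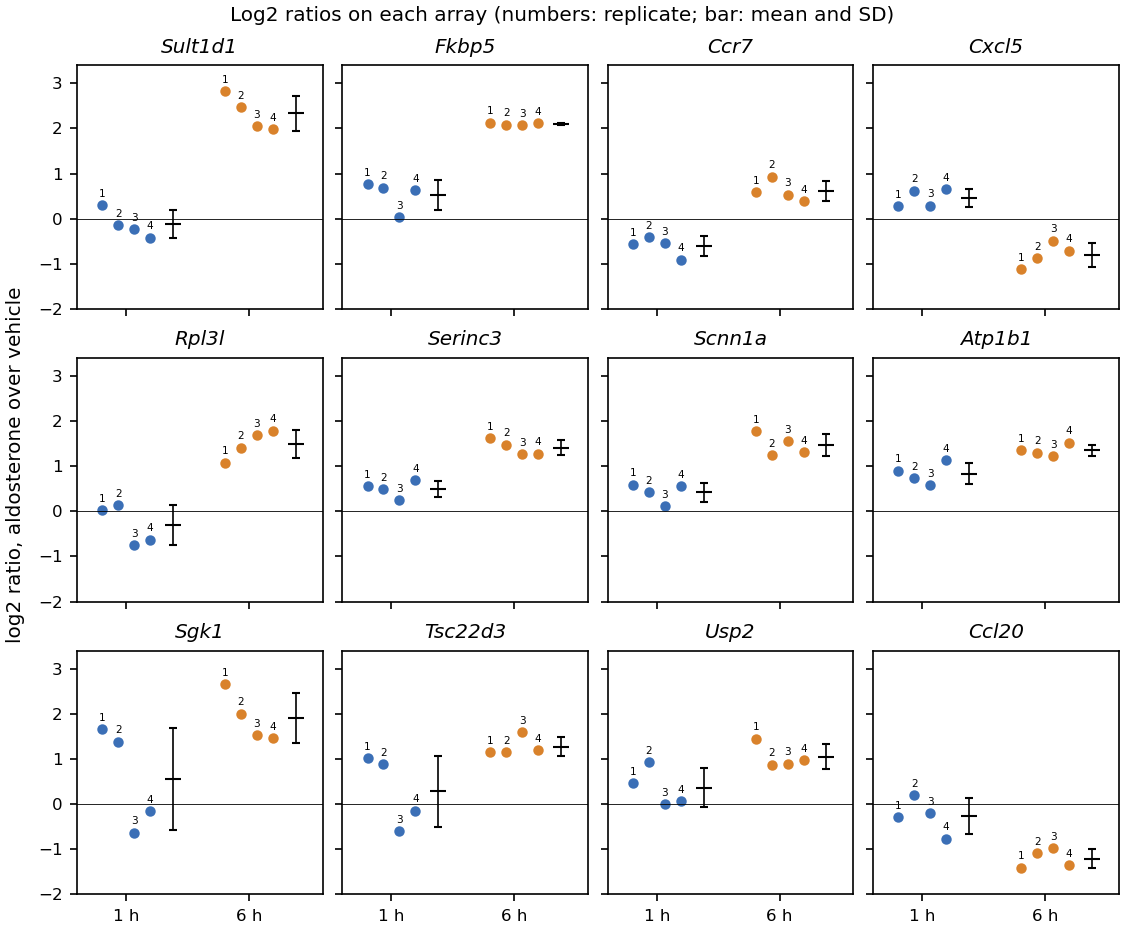
Log2 ratio of aldosterone over vehicle (y axis) on each of 4 arrays at 1 h (blue) and at 6 h (orange) for 12 genes, with the replicate number above each point and the mean with its SD beside each group. Sult1d1, Fkbp5, Ccr7 and Cxcl5 passed the test, and Sgk1 and Tsc22d3 show replicates 1 and 2 above replicates 3 and 4 at 1 h.

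Among chemokine and inflammatory genes the log2 difference was below 0 in 26 of 42 measured members, beside 53.17% of all features, and 1 of them passed, beside 0.00663%. Cxcl5, a neutrophil-attracting chemokine made by epithelia, had log2 ratios of 0.27, 0.62, 0.29 and 0.65 at 1 h and -1.12, -0.88, -0.49 and -0.71 at 6 h. It was above vehicle on every array of 1 h and below on every array of 6 h, and its ratio fell by 1.26 on the log2 scale (SE 0.15, adjusted p = 0.0426), or 2.39-fold. The call did not hold in any of the 8 fits that left out 1 array, where the adjusted p lay between 0.053 and 0.15 and the value between -1.36 and -1.15.

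Ccl20, a ligand for dendritic and T cells, had -0.29, 0.19, -0.20 and -0.77 at 1 h and -1.41, -1.09, -0.98 and -1.36 at 6 h, again without overlap (log2 difference -0.94 ± 0.19, adjusted p = 0.186). Ccl3, a ligand best known from macrophages, had the lowest ratios, with 0.26, -0.97, -1.09 and -1.08 at 1 h and -1.55, -3.72, -2.03 and -3.37 at 6 h. Its log2 difference was -1.95 ± 0.49 (adjusted p = 0.199), and it moved between -2.32 and -1.60 with single arrays left out. Cxcl1, another neutrophil chemokine, was at -0.25 ± 0.11 (adjusted p = 0.313), and Ccl2, a monocyte chemokine, at 0.07 ± 0.15 (adjusted p = 0.840), or 0.01 without replicate 4 of 1 h. Over the list, 3 members (7.1%, beside 4.75% of all features) had all arrays lower at 6 h and 0 all higher (beside 5.03%), and the median log2 difference was -0.11. Without replicate 4 of 1 h, 5 members were lower (11.9%, beside 6.21% of all features) and 1 higher (2.38%, beside 6.34%).

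Ccr7, a chemokine receptor known from lymphocytes and dendritic cells, went the other way and is on no list. Its log2 ratios were -0.56, -0.41, -0.54 and -0.91 at 1 h and 0.59, 0.93, 0.53 and 0.39 at 6 h, below vehicle on all arrays of the early time and above on all of the later. The log2 difference was 1.22 ± 0.15, or 2.32-fold (adjusted p = 0.0426). The call was kept in 1 of the 8 fits with an array left out, the fit without replicate 4 of 6 h, while the value stayed between 1.11 and 1.29.

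Next to the threshold stood several genes that were chosen for naming after their values were seen. Rpl3l, the striated muscle relative of the ribosomal protein Rpl3, had 0.03, 0.14, -0.75 and -0.63 at 1 h and 1.08, 1.41, 1.68 and 1.79 at 6 h (log2 difference 1.79 ± 0.23, adjusted p = 0.0531). Serinc3, a membrane protein of the serine incorporator family, had 0.56, 0.49, 0.25 and 0.69 and then 1.62, 1.48, 1.26 and 1.28, above vehicle on all 8 arrays (0.91 ± 0.13, adjusted p = 0.0696). Both were called when arrays were weighted, with adjusted p = 0.0339, and Rpl3l was called in 6 of 17 alternatives in all. Utrn, which encodes the dystrophin relative utrophin, had a log2 difference of 0.77 ± 0.12 (adjusted p = 0.133), and Dmd, dystrophin itself, one of 0.53 ± 0.09 (adjusted p = 0.160).

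On the lower side, Uncx, a homeobox transcription factor gene, had a log2 difference of -0.79 ± 0.12 (adjusted p = 0.122) and was above vehicle on all arrays of 1 h and below on all of 6 h, and it was called in 2 of 17 alternatives, the scaled and the quantile normalized arrays. Phlda1, a pleckstrin homology-like domain gene, had 0.04, 0.16, 0.91 and 0.76 at 1 h and -0.62, -0.72, -0.56 and -0.71 at 6 h (-1.12 ± 0.19, adjusted p = 0.153). Tet1, a methylcytosine dioxygenase, was at -1.07 ± 0.21 (adjusted p = 0.186), and Plat, the tissue plasminogen activator, at -0.58 ± 0.12 (adjusted p = 0.186). For all 4 genes the arrays of the times did not overlap. Mmp20, an enamel protease, was below vehicle at both times and lower at 6 h, with -0.70 ± 0.12 (adjusted p = 0.145).

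Of the named genes with at least a 2-fold difference and no overlap, 12 were higher and 9 lower at 6 h. Besides those above, the higher ones were Col9a1, Cpa1, Apcdd1, Zswim8, Pik3r1, Mucl2 and Jchain. Jchain, which joins immunoglobulin chains, had the next highest difference to Sult1d1 among these 12, at 2.37 ± 0.88 (adjusted p = 0.256), but it rested on replicate 2 of 1 h at -4.90, and without that array it was 1.32. Pik3r1, a regulatory subunit of phosphoinositide 3-kinase, went from -0.25, -0.29, -0.64 and -1.54 to 0.22, 0.10, 0.65 and 0.32 (1.00 ± 0.27, adjusted p = 0.202). The remaining lower genes were 5430425E15Rik, Cd59a, 2700046G09Rik, Tex30 and Zik1. Cd59a, which protects cells from complement, had a log2 difference of -1.58 ± 0.42 (adjusted p = 0.202). Zik1 and Tex30 had their largest departure on replicate 4 of 6 h, at -4.93 and -3.02, and without it their differences were -0.73 and -0.93 in place of -1.87 and -1.63, under 2-fold. Without replicate 4 of 1 h, Mucl2 was at 0.72 in place of 1.10, 2700046G09Rik at -0.89 in place of -1.34, Zswim8 at 0.82 in place of 1.08, Apcdd1 at 0.86 in place of 1.03 and Pik3r1 at 0.72 in place of 1.00, also under 2-fold.

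Genes of families that are restricted to tissues other than kidney were listed because several of them had low ratios at 1 h, so the choice itself favours members that are higher at 6 h and their counts support nothing. Cpa1, a pancreatic carboxypeptidase, had log2 ratios of -2.26, -2.03, -1.74 and -2.51 at 1 h and -1.02, -1.06, -0.70 and -0.87 at 6 h. It was below vehicle on all 8 arrays, and less so at 6 h (log2 difference 1.22 ± 0.16, adjusted p = 0.0629), and it was called in 3 of 17 alternatives. Col9a1, a cartilage collagen, went from -2.36, -3.09, -2.48 and -2.21 to -0.86, -0.57, -1.36 and -1.51 (1.46 ± 0.24, adjusted p = 0.145), and Tnnt3, a skeletal muscle troponin, from a mean of -0.43 to 0.21 (0.65 ± 0.14, adjusted p = 0.186). Of 79 measured members, 10 (12.7%) had all arrays higher at 6 h and 3 (3.8%) all lower, beside 5.03% and 4.75% of all features, 0 passed, and the median log2 difference was 0.01. Without replicate 4 of 1 h these counts were 12 and 3, beside 6.34% and 6.21% of all features.

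Genes of the cytosolic ribosome had lower ratios at 6 h than at 1 h as a list, though none of the 58 measured passed. The log2 difference was below 0 in 55 of 58, beside 53.17% of all features, and the median was -0.32, against -0.02 over all features. The median ratio of the list was 0.35, 0.20, 0.21 and 1.13 on replicates 1 to 4 of 1 h and 0.04, 0.11, 0.18 and 0.22 at 6 h. Replicate 4 of 1 h, the array with the widest spread, was thus far above the others, and without it the median difference was -0.11. In 11 of 58 members (19.0%) all arrays of 6 h were lower, beside 4.75% of all features. Without that array the count was again 11, beside 6.21%, but leaving out an array cannot lower such a count, so this is no check on it. Rpl31, for example, had 0.73, 0.34, 0.31 and 1.69 at 1 h and -0.04, 0.03, 0.18 and 0.19 at 6 h (log2 difference -0.68 ± 0.27, adjusted p = 0.276), and the difference without replicate 4 of 1 h was -0.37.

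Rpl7a and Rps24 had the same shape, with 0.99 and 1.18 on replicate 4 of 1 h and no more than 0.53 on the other arrays. Their log2 differences were -0.45 ± 0.15 for Rpl7a and -0.45 ± 0.16 for Rps24 (adjusted p = 0.234 and 0.248), and without that array -0.29 and -0.28. For subunits of oxidative phosphorylation, the respiratory chain and the mitochondrial ATP synthase, the median log2 difference of 60 genes was -0.09, and -0.04 without replicate 4 of 1 h, where the list's median ratio was 0.43. In 5 of the 60 (8.3%), among them Atp5j2 and Ndufa7, all arrays were lower at 6 h, beside 4.75% of all features, and without that array the share was 8.33% beside 6.21%. With the arrays scaled to a common spread, quantile normalized or weighted, the median difference was -0.16, -0.20 and -0.14 for the ribosomal list and -0.04, -0.05 and -0.08 for oxidative phosphorylation.

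**Figure D4:**
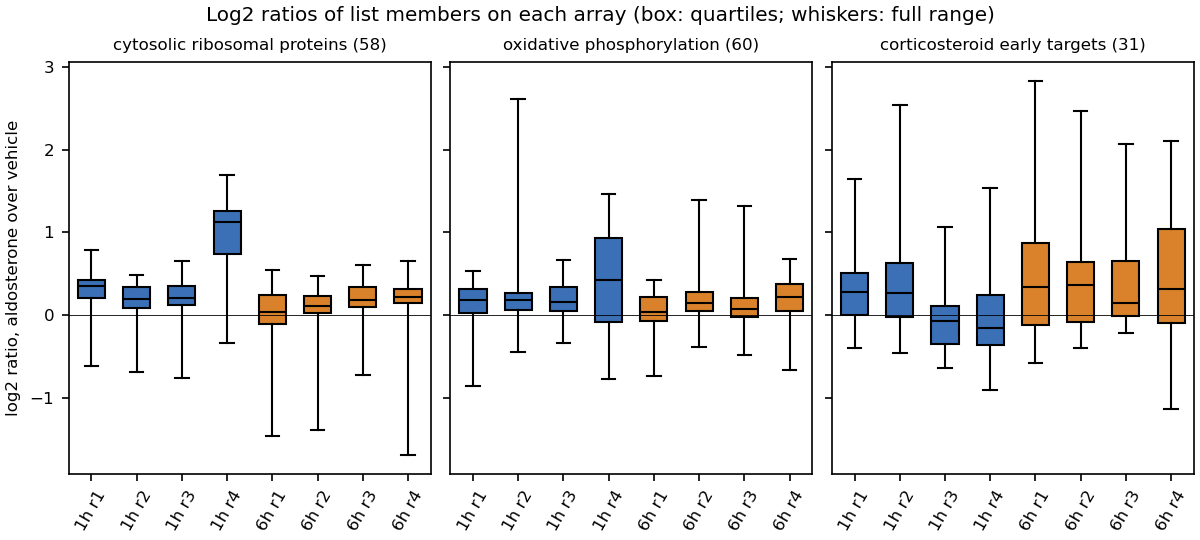
Log2 ratio of aldosterone over vehicle (y axis) of the members of 3 gene lists on each of 8 arrays (1 h in blue, 6 h in orange), with boxes for the quartiles, a line for the median and whiskers for the full range. The ribosomal list has a median of 1.13 on replicate 4 of 1 h and at most 0.35 on the others, and the early target list is low on replicates 3 and 4 of 1 h.

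Epithelial junction and cytoskeleton genes also had more lower than higher members, with none of 44 passing. The median log2 difference was -0.13, and -0.06 without replicate 4 of 1 h. All arrays were lower at 6 h for Ocln, Cldn6, Cldn10, Epcam, Flna and Actn1, and for 0 genes were all higher, so 13.6% were lower beside 4.75% of all features and none higher beside 5.03%. Without replicate 4 of 1 h the difference of Actn1, an actin crosslinker, was -0.14 in place of -0.24. Ocln, the tight junction protein occludin, had 0.24, 0.29, 0.36 and 0.44 and then 0.15, 0.07, 0.05 and 0.09 (log2 difference -0.24 ± 0.09, adjusted p = 0.247). Cldn10, a claudin of ion-selective junctions, was at -0.50 ± 0.13 (adjusted p = 0.202), the average of 2 probes at -0.32 and -0.67 by themselves. For the probe at -0.32 the times overlapped, with 0.12 on replicate 2 of 1 h and 0.18 on replicate 3 of 6 h. Epcam, an epithelial adhesion molecule, was at -0.33 ± 0.13 (adjusted p = 0.286), or -0.20 without replicate 4 of 1 h. Without that array 7 members were lower (15.91%, beside 6.21% of all features) and 3 higher (6.82%, beside 6.34%) with no overlap.

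In the hypoxia and glycolysis list the median log2 difference of 31 genes was 0.00, with 3 genes (9.7%) all higher and 1 (3.2%) all lower, beside 5.03% and 4.75% of all features. Slc2a3, a glucose transporter, went from a mean log2 ratio of -0.61 to 0.12 (log2 difference 0.73 ± 0.17, adjusted p = 0.188), and Ndrg1, a stress-induced gene, was at 0.28 ± 0.10 (adjusted p = 0.248). Car9, a carbonic anhydrase induced by low oxygen, went from 0.02, -0.06, -0.64 and -1.53 to 0.36, 0.16, 0.24 and 0.33 (0.83 ± 0.29, adjusted p = 0.246), and without replicate 4 of 1 h the difference was 0.50. Without that array 5 members were all higher (16.13%, beside 6.34%) and 1 all lower (3.23%, beside 6.21%). Egln1, an oxygen-sensing prolyl hydroxylase, was the lower gene, at -0.26 ± 0.10 (adjusted p = 0.262).

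Cell cycle genes were mixed, and none of 56 passed. Ccnd2, a D-type cyclin, had -0.41, -0.60, -0.75 and -0.89 at 1 h and -0.31, 0.01, -0.10 and -0.24 at 6 h, without overlap (log2 difference 0.50 ± 0.13, adjusted p = 0.199). Rfc4, a subunit of the clamp loader of DNA replication, was at -0.37 ± 0.10 (adjusted p = 0.202), with all arrays lower. With no overlap, 4 members were higher (7.1%) and 3 lower (5.4%), close to the shares of all features.

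Immediate early genes had a median log2 difference of -0.03 over 36 members, with Fosl2 the only member all higher (2.8%, beside 5.03% of all features) and Jund and Klf4 all lower (5.6%, beside 4.75%). Jund, another AP-1 subunit, was at -0.46, or -0.27 without replicate 4 of 1 h. Klf4, a transcription factor of epithelial differentiation, was at -0.35 ± 0.09 (adjusted p = 0.202), and Fosl2, an AP-1 subunit, at 0.26 ± 0.09 (adjusted p = 0.234). In the heat shock and unfolded protein list, 1 of 36 (2.8%) was all higher and 4 (11.1%) all lower, beside 5.03% and 4.75% of all features, among them Ern1, the endoplasmic reticulum stress sensor, at -0.33 ± 0.10 (adjusted p = 0.207). The chaperone Hspa5 was at -0.43 ± 0.14 (adjusted p = 0.225) with overlapping arrays. Of 45 matrix and TGF-beta response genes, 2 (4.4%) were all higher and 4 (8.9%) all lower, beside the same shares.

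The circadian clock, cholesterol synthesis, intercalated cell and other nephron segment lists had 0 members without overlap in either direction. Of these, the 17 clock genes had a median of 0.04, and Bhlhe40, a clock repressor, had the smallest p of that list with a log2 difference of 0.48 ± 0.17 (adjusted p = 0.243). The 26 genes of cholesterol and fatty acid synthesis had a median of 0.01. Vesicle traffic and ubiquitin genes had a median of 0.00 over 49 members, with 1 all lower (2.0%, beside 4.75%) and 0 all higher (beside 5.03%). Within that list Tom1l1, an adaptor of endosomal sorting, had a log2 difference of 1.87 ± 0.43 (adjusted p = 0.188) from means of -3.66 at 1 h and -1.79 at 6 h, and it passed without replicate 4 of 6 h, at 2.34 (adjusted p = 0.0439), and after quantile normalization, at 2.49 (adjusted p = 0.0456).

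Markers of cell types were looked at for shifts between the times. Of 22 measured principal cell markers 2, Kcnk1 and Krt7, had all arrays higher at 6 h (9.1%, beside 5.03% of all features), and 0 lower (beside 4.75%), with a median log2 difference of 0.03, and without replicate 4 of 1 h the counts were 3 and 1 (beside 6.34% and 6.21%). Over the 22 the log2 difference was above 0 in 12 and below 0 in 10. Krt7, a keratin of simple epithelia, had 0.11, 0.09, 0.17 and -0.22 at 1 h and 0.60, 0.68, 0.48 and 0.29 at 6 h (log2 difference 0.47 ± 0.12, adjusted p = 0.202). Other keratins of simple epithelia were below 0, with Krt8 at -0.39, Krt19 at -0.345 and Krt18 at -0.13. Without replicate 4 of 1 h these were -0.16, -0.05 and -0.07. Kcnk1, a potassium channel of the collecting duct, was at 0.42 ± 0.12 (adjusted p = 0.206). Aqp2, the vasopressin-regulated water channel, was at -0.17 ± 0.13 (adjusted p = 0.530), and Elf5, a transcription factor of principal cells, was below vehicle on all 8 arrays with a log2 difference of -0.28 ± 0.25 (adjusted p = 0.583). The 17 stromal, endothelial and blood cell markers had list medians on single arrays from -0.29 to -0.11 at 1 h and from -0.12 to -0.05 at 6 h. Of these 17, Col1a1 and Col3a1, fibrillar collagens of fibroblasts, had all arrays higher at 6 h (11.8%, beside 5.03%). They were at 0.48 ± 0.15 and 0.43 ± 0.12 (adjusted p = 0.210 and 0.202), and their part in other differences was not tested. Over the 17 the log2 difference was above 0 in 11 and below 0 in 6, beside 46.52% and 53.17% of all features, and Emcn had the lowest, at -0.92. Col1a2 was at 0.08, or 0.17 without replicate 4 of 1 h. The 11 intercalated cell markers had a median difference of 0.04 and the 17 markers of other nephron segments one of -0.02.

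**Figure D5:**
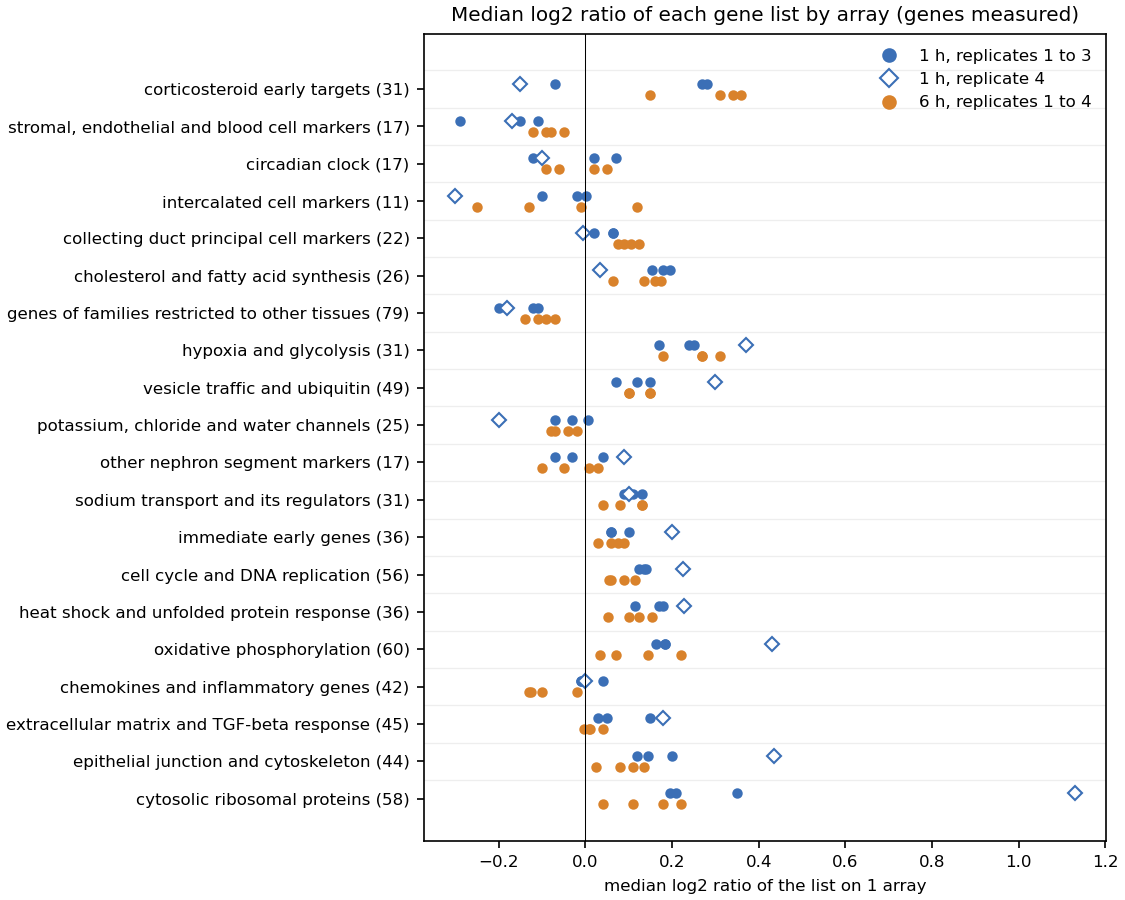
Median log2 ratio (x axis) of each of 20 gene lists on each array, with 1 h in blue, replicate 4 of 1 h as an open diamond, and 6 h in orange, and the number of genes measured in brackets. Replicate 4 of 1 h lies apart for the ribosomal, oxidative phosphorylation and epithelial junction lists, and the early target list has 2 low arrays at 1 h.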

How the data were processed

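Per the labels, the authors read the slides with a GenePix 4.0 scanner, judged array quality from ratio and intensity plots and signal to noise, and normalized the log2 ratios of Cy5 over Cy3 in R and Bioconductor. The deposited values are these log2 ratios, of 16361 probes. The normalization method, background correction and spot filter are steps not given in the sources used here, and no intensities were used, so signal over background is unknown and 4 arrays per time limit the precision.

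Probes with values at 1 h only (202) or at 6 h only (76) were left out of the contrast. Probes with the same single symbol, from the platform annotation, were averaged (938 genes had several probes, 13 probes had several symbols and stayed unnamed, 2580 had none). Limma 3.58.1 in R 4.3.3 fitted a mean for each time to the 8 arrays with empirical Bayes moderation, and the contrast of 6 h minus 1 h was tested two-sided with Benjamini-Hochberg adjustment and a threshold of 0.05. The fit was tested on simulated data. All columns of array values were mapped.

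Named genes were those that passed without overlap of the arrays (12 per direction at most), every measured early target, and the 3 members of each other list with the smallest p. Genes with the 20 smallest p or with at least a 2-fold difference without overlap, and the list members singled out for not overlapping or for their known role, were added after their values were seen. The members and the 20 lists were chosen with earlier results of these data known, and Sult1d1 and Atp1b1 entered the early target list that way. Alternatives were other scalings, named genes only, each probe by itself, robust moderation, weights, a minimum of 1.2-fold and leaving out each array. Plots used Python 3.11.15 and matplotlib 3.10.9.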

Additional observations from a re-analysis of the deposited data

Results flagged for a closer look

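The differences between 6 h and 1 h that passed the test of the difference itself were those of Sult1d1 (2.46 on the log2 scale), Fkbp5 (1.57), Ccr7 (1.22) and Cxcl5 (-1.26).

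Of 256 groups of 4 arrays examined, 21 (8.2%) had an array far from the other 3 by Dixon's criterion. For independent groups of normal values chance gives about 1 in 20. The groups here share arrays and include genes picked after their values were seen, so the share cannot be compared with that rate. Replicate 4 of 1 h was the array that stood apart in its SD of log2 ratios (0.583), in the list medians of cytosolic ribosomal proteins (1.13), oxidative phosphorylation (0.43) and cell cycle genes (0.23), and in Rpl7a (0.99), Rps24 (1.18), Ern1 (0.48) and Mucl2 (-3.04). Replicate 1 of 1 h stood apart in Pdk4 (0.18), Ccl3 (0.26) and Tet1 (0.76), replicate 2 in Rora (0.92) and Nlrp5 (-0.54), and replicate 3 in Cdkn1a (0.01) and St6gal1 (0.21). At 6 h, replicate 4 stood apart in Atp5j2 (-0.22), Tex30 (-3.02), Zik1 (-4.93) and Zswim8 (0.09), replicate 3 in Tsc22d3 (1.59), and replicate 1 in Map3k6 (-0.25).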

How the results depend on the processing

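The count of features higher at 6 h was 3 and became 6 with arrays scaled to a common spread, 9 after quantile normalization, 7 with array weights, and 0 to 4 when 1 array was left out. The count lower was 1 and became 3 after scaling, 3 after quantile normalization, 0 with a minimum of 1.2-fold, and 0 to 1 when 1 array was left out. Limma called 0 features in either direction without replicate 4 of 1 h, where 1930 had an unadjusted p under 0.05, and 0 without replicate 2 of 6 h, where 1515 did; without replicate 1 or replicate 3 of 6 h it called 1. With the minimum of 1.2-fold, 369 features had an unadjusted p under 0.05 against that minimum. Sult1d1 was called in 15 of 17 alternatives, Fkbp5 in 12, Ccr7 in 9 and Cxcl5 in 8. Fkbp5 was not called after quantile normalization (1.50, adjusted p = 0.0572). Over the named genes, 1784 of 1824 values under an alternative kept their side of the threshold, 24 lost a call and 16 gained one. Most named genes had no call to lose, and all 24 losses were of the genes that passed. The 1784 is thus no measure of how stable those calls were. No value with a call changed direction, but the 1784 include sign changes in 7 genes without a call. Of 300 list medians 21 moved by 1 SD or more. The cause of these changes was not tested. No paired analysis was possible because the labels give replicate numbers to only 2 of the 6 h arrays and to none at 1 h. A filter on dim probes was not run, since signal over background is unknown.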

Other observations

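Some probes had values at 1 time only and so have no difference. At 1 h only there were 202 such probes, 161 of them named, and 81 had the same sign on all 4 arrays. Of those, 10 also had a mean of at least 2-fold, 4 above and 6 below vehicle. The lowest was Pcdhb18, a clustered protocadherin, with log2 ratios of -0.95, -2.43, -2.09 and -2.01, and Mmp7, an epithelial matrix protease, had -1.15, -1.40, -1.06 and -0.90. At 6 h only there were 76 probes, 67 of them named, of which 24 had the same sign on all 4 arrays and 7 also had a mean of at least 2-fold, 4 above and 3 below. Tgfb3, a TGF-beta ligand, had -0.47, -1.48, -1.26 and -1.02, and Dner, a Notch ligand, had -1.53, -3.76, -1.48 and -3.10. These probes were picked after their values were seen.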
